A study of Mus musculus with 8 samples.

Results

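The levels of 10 genes of simple epithelia and of the transitional epithelial state were followed in mouse lung after naphthalene. They were taken by symbol from the 22244 genes of the count table: the keratins Krt7, Krt8, Krt18 and Krt19, and Sfn, Lgals3, Ndrg1, Clu, Anxa1 and Sprr1a. All 10 were in the table, and 9 had enough counts to be tested. Sprr1a did not. The lungs came from adult male wild-type C57BL/6J mice, 4 without treatment and 4 injected with naphthalene, which P450 enzymes of airway club cells turn into toxic products. RNA was taken from the right cranial lobe, a bulk tissue sample that holds all cell types of the lobe, and sequenced as stranded total RNA. The sources used here do not give dose, vehicle, age in weeks or time after injection. Because the controls are labelled as untreated, effects of the injection and of naphthalene cannot be told apart. Total counts were 10743842 to 16792306 per library.

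Keratins are intermediate filament proteins that assemble as pairs of a type I and a type II chain. Krt7 and Krt8 encode type II chains and Krt18 and Krt19 type I chains, and this set is typical of simple epithelia such as those of the airway and alveolus and of the mesothelium that covers the lung. In injured alveoli, type 2 cells on their way to type 1 cells pass through a state marked by high Krt8, and Sfn, Lgals3, Clu, Ndrg1 and Sprr1a are among the genes used to describe it. Several of the genes are also expressed outside the epithelium, Lgals3 in macrophages and Anxa1 in neutrophils among them.

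All 4 simple keratins were higher after naphthalene, by 2.36- to 2.84-fold, and Sfn was higher by 4.96-fold. Lgals3 and Anxa1 rose by smaller amounts. Of the 9 tested genes 7 passed as higher and 0 as lower (edgeR quasi-likelihood, Benjamini-Hochberg adjusted p below 0.05 over all 14192 tested genes), against a background of 14.1% of all tested genes called higher, 14.6% called lower and 28.7% in either direction. A log2 fold change of at least 1 together with that threshold was met by 5 of the 9 and by 2.83% of all tested genes. The 9 tested genes had a median log2 fold change of 1.24, and all tested genes one of 0.01. The genes were chosen with earlier results of these data known, and no test of the set was made. Ndrg1 and Clu did not pass. On levels scaled to library size (CPM, counts scaled to a common library size with TMM factors) the groups did not overlap for 6 of the 9 tested genes, all higher, namely the 4 keratins, Sfn and Lgals3, where 13.9% of all tested genes were higher without overlap, 14.7% lower and 28.6% either. In bulk tissue a change in the number of cells that express a gene and a change in RNA per cell cannot be told apart.

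**Figure D1:**
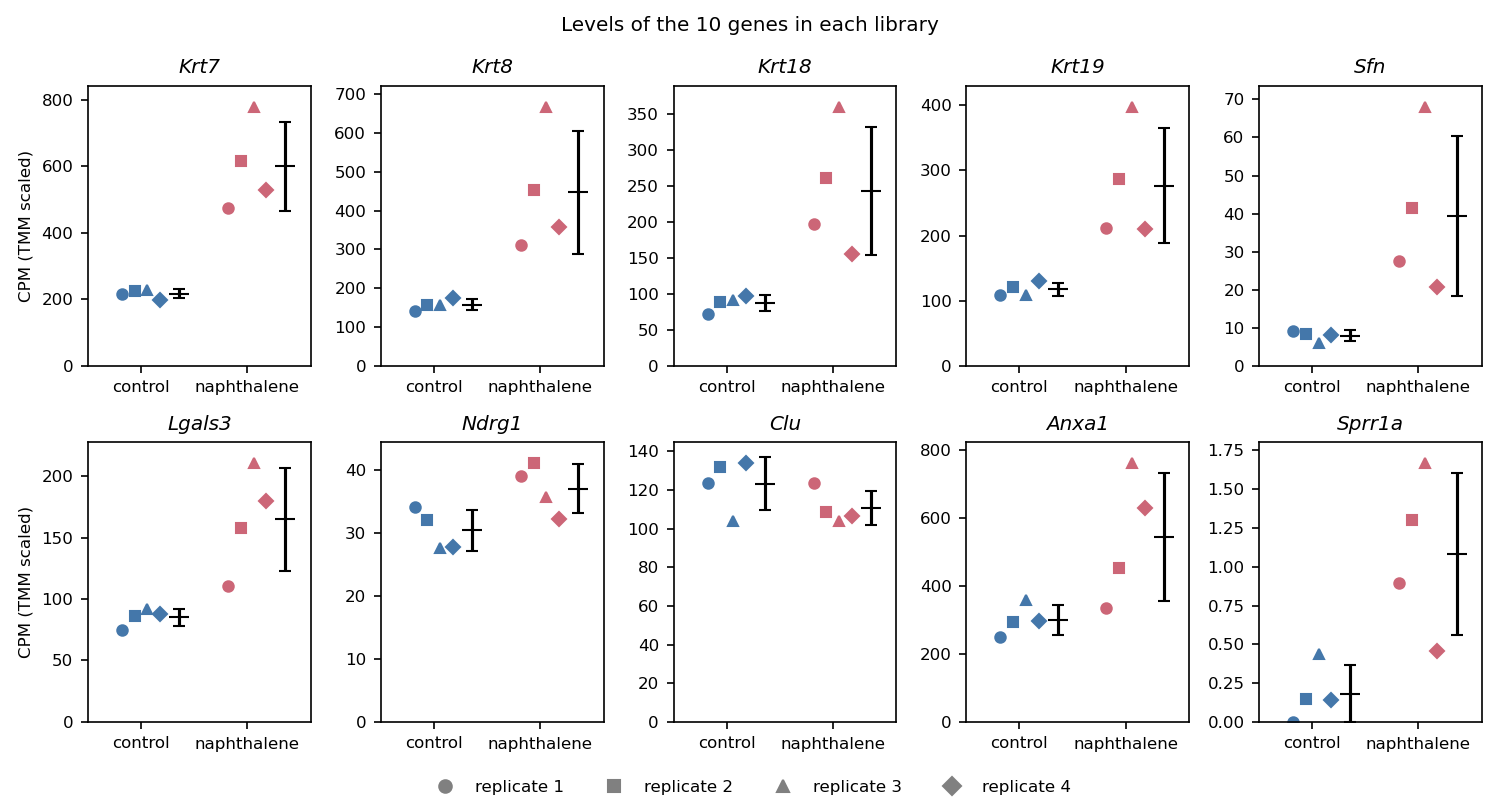
Level of each of the 10 genes in every library, in CPM with TMM scaling on linear axes that start at 0; symbols are libraries (4 control, 4 naphthalene), and the bar beside each group is the mean ± SD. The 4 naphthalene libraries lie above every control for the 4 keratins, Sfn and Lgals3, while the groups overlap for Ndrg1, Clu and Anxa1.

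Krt8, the type II chain that names the transitional state, stood at 141, 157, 157 and 174 CPM in controls 1 to 4 and at 310, 452, 668 and 359 CPM in naphthalene 1 to 4. The lowest naphthalene library was thus 1.78 times the highest control, and naphthalene 3 stood highest. Its mean was 157 ± 13.5 CPM in controls and 447 ± 158 CPM after naphthalene (SD, n = 4). This is a log2 fold change of 1.51 (SE 0.25, edgeR adjusted p = 0.000425). Krt18, the type I partner of Krt8, was at 71.8, 89.1, 90.9 and 97.0 CPM in controls and at 198, 261, 361 and 156 CPM after naphthalene. Its groups did not overlap either, and among treated libraries naphthalene 3 was again highest while naphthalene 4 and not naphthalene 1 was lowest. The log2 fold change of Krt18 was 1.48 (SE 0.28, edgeR adjusted p = 0.000699).

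Krt7, the type II keratin of ducts and alveolar type 1 cells, was the most abundant of the 4 in read counts. It measured 217, 225, 226 and 197 CPM in controls and 473, 617, 779 and 530 CPM after naphthalene. Controls varied little, with a coefficient of variation of 6.24% against 22.2% among treated libraries, and the lowest treated library was 2.09 times the highest control. Its log2 fold change was 1.47 (SE 0.16), and its adjusted p of 6.64e-05 (edgeR) was the smallest of the 9, ranking 125 of 14192 genes. Krt19, a small type I keratin of simple epithelia, was at 109, 121, 108 and 130 CPM in controls and 212, 287, 398 and 211 CPM after naphthalene. No treated library fell within the control range, and the log2 fold change was 1.24 (SE 0.23, edgeR adjusted p = 0.00078). Together the 4 keratins summed to 539 to 599 CPM in controls and 1192 to 2205 CPM after naphthalene.

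Per length of the principal transcript (GENCODE M21), Krt8 had the highest mean level of the 4 in controls, at 80.4 ± 6.89 CPM per kb. Krt19 followed at 74.5 ± 6.64 and Krt18 at 60.7 ± 7.53. Within each of the 8 libraries Krt8 stood above both Krt19 and Krt18 per length of the principal transcript. After naphthalene the means were 228 ± 80.9 CPM per kb for Krt8, 176 ± 56.0 for Krt19 and 170 ± 62.0 for Krt18. The genes were measured in the same libraries, so these SDs do not measure the difference between genes. Over all annotated exons, 1855 bases, Krt19 was at 63.3 CPM per kb in controls and 149 after naphthalene. Krt18 has the same length of 1437 bases either way. The Krt7 level per length depended on the transcript assumed, being 52.8 CPM per kb in controls for a principal transcript of 4094 bases and 30.7 for all annotated exons, 7049 bases. Krt7 was therefore not placed in this order, and Krt19 and Krt18 were not ranked after naphthalene. Among all 10 genes Anxa1 had the highest level per length in controls (179 ± 27.1 CPM per kb) and Sprr1a the lowest (0.226 CPM per kb).

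**Figure D2:**
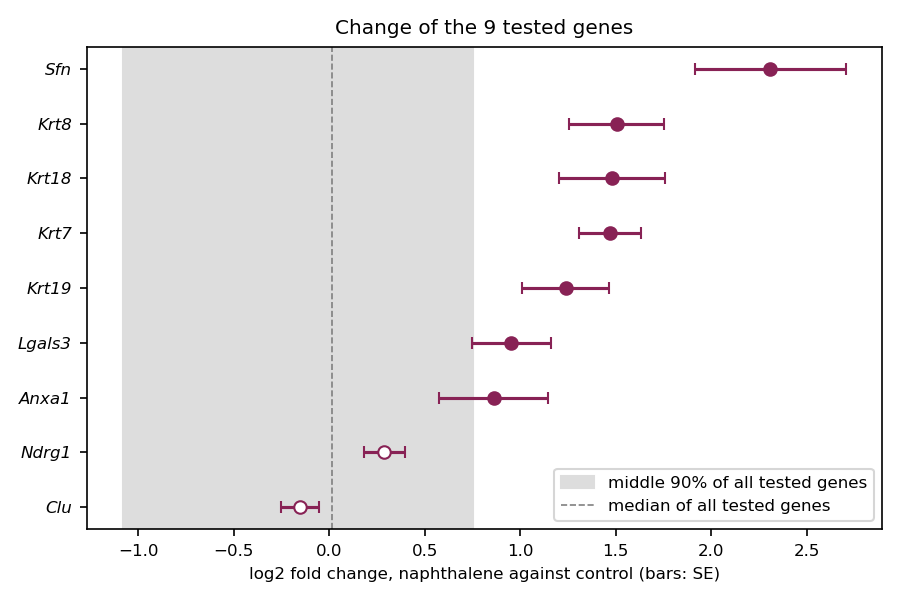
Log2 fold change of the 9 tested genes, naphthalene against control, with SE as bars; filled points passed an adjusted p of 0.05 and open points did not, and the grey band holds the middle 90% of all tested genes. The 7 genes that passed lie to the right of the band's upper edge of 0.75, with Sfn at 2.31 farthest out.

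The balance between keratin chains was compared within each library as the ratio of read counts, which does not depend on library scaling. For the filament pair Krt8 to Krt18 the ratio was 1.97, 1.77, 1.72 and 1.80 in controls and 1.57, 1.73, 1.85 and 2.30 after naphthalene. The groups overlapped, and the mean log2 ratio differed by 0.03 (exact 2-sided permutation p = 0.8, n = 4 per group, adjusted p = 1). Krt7 to Krt8 was 1.13 to 1.53 in controls and 1.17 to 1.53 after naphthalene, a log2 difference of 0.00 (0.0017 before rounding, exact permutation p = 1). Krt7 to Krt19 had means of 1.85 and 2.21 and Krt19 to Krt18 means of 1.35 and 1.15, each with exact permutation p = 0.0857 and adjusted p = 0.143 over 5 ratios. These tests leave room for modest shifts, since the control SDs of the log2 ratios were 0.08 to 0.20. The spread of Krt8 to Krt18 was 0.08 among controls and 0.23 among treated libraries on the log2 scale.

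Set against Epcam, a surface protein of most lung epithelial cells, Krt8 was higher in every treated lung. The ratio of counts was 2.55, 2.54, 2.66 and 2.40 in controls and 4.95, 5.09, 6.34 and 5.65 after naphthalene. The groups were far apart relative to their spread, with a log2 difference of 1.11. The exact 2-sided permutation p was 0.0286, the smallest that 4 against 4 libraries allow, and 0.143 after adjustment over the 5 ratios. With 1 ratio at that floor the adjusted p cannot be lower, so this ratio could not pass whatever its difference. Epcam itself was at 62.2 ± 7.44 and 80.1 ± 20.8 CPM (edgeR adjusted p = 0.128).

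**Figure D3:**
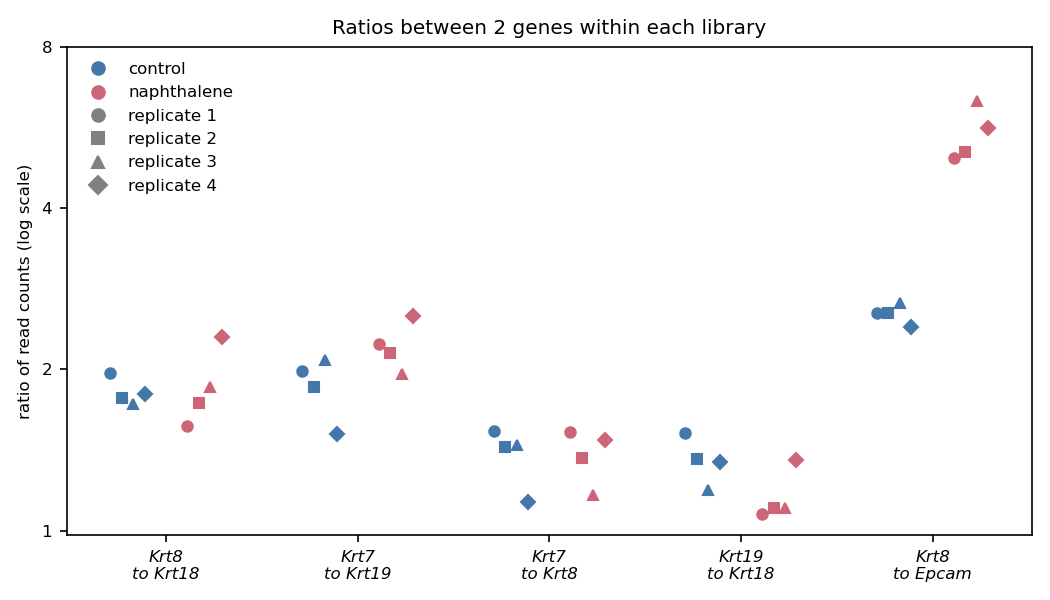
Ratio of read counts between 2 genes in each library, on a log axis; blue points are the 4 controls, red points the 4 naphthalene libraries, and symbols are replicate numbers. The 4 ratios between keratins overlap between groups, while Krt8 to Epcam is 2.40 to 2.66 in controls and 4.95 to 6.34 after naphthalene.

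Krt8 and Krt18 lie next to each other in the RefSeq gene order of mouse chromosome 15, in the type II keratin cluster, although Krt18 encodes a type I chain. The genes beside them were read after the values were seen. Krt78, next to Krt8 on the other side, rose from 0.362 ± 0.0610 to 1.51 ± 0.528 CPM (log2 fold change 2.02, edgeR adjusted p = 0.00207). Beyond it Krt79 was at 13.0 ± 2.86 and 10.6 ± 3.67 CPM (adjusted p = 0.383), and on the Krt18 side the translation factor gene Eif4b had a log2 fold change of -0.03 and Tns2 one of -0.07, neither passing (adjusted p = 0.866 and 0.702). Krt7 is flanked by Krt80, which rose by 0.66 on the log2 scale (adjusted p = 0.0221), and by Krt87, a hair keratin that rose by 1.49 from 1.53 ± 0.329 CPM (adjusted p = 0.00184). The next genes on the Krt80 side, Smim41 and Atg101, did not pass (adjusted p = 0.376 and 0.771). How reads from near-identical keratin sequences, pseudogenes included, were assigned is not stated in these sources, so the low values of Krt78 and Krt87 are uncertain. The same limit applies to the levels and ratios of the other keratins, the 4 simple keratins included, and its size was not measured.

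The sequences just before the starts of this neighbouring pair are shown because both genes rose by a similar amount (RefSeq, GRCm38.p6; the counts were made on mm39, so the coordinates locate the sequence alone). The Krt8 stretch is chr15:102004343-102004442 on the minus strand and the Krt18 stretch is chr15:102028116-102028215 on the plus strand, each 100 bases, 5′ to 3′, ending at the base before the annotated start. Neither stretch holds a whole match to the motifs given further on, so no capitals appear.
Krt8: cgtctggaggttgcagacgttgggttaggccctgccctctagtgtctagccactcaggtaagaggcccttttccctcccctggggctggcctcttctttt
Krt18: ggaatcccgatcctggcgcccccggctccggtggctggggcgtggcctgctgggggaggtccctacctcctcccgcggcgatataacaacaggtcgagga

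Sfn encodes the sigma member of the 14-3-3 adaptor proteins, an epithelial protein known as a p53 target that arrests the cell cycle after DNA damage. It was at 9.14, 8.42, 5.98 and 8.16 CPM in controls and 27.6, 41.5, 68.1 and 20.6 CPM after naphthalene. Every treated library was at least 2.25 times the highest control, with naphthalene 3 highest and naphthalene 4 lowest, as for Krt18. Its log2 fold change of 2.31 (SE 0.40, edgeR adjusted p = 0.000552) exceeded that of 99.4% of tested genes. The 6 other 14-3-3 genes, which are expressed in most cell types, changed little. Ywhag and Ywhah passed as higher, against 14.1% of all tested genes, with log2 fold changes of 0.41 and 0.27 (edgeR adjusted p = 0.0427 and 0.0432), 4 did not pass and the median was 0.14. Leaving out any single control, naphthalene 2 or naphthalene 3 ended both calls, as did upper quartile scaling and no filter. A test of a difference between Sfn and these genes was not made.

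Lgals3 encodes galectin-3, a lectin of macrophages and epithelial cells that binds damaged membranes. It measured 74.6, 86.4, 91.6 and 87.5 CPM in controls and 111, 158, 211 and 180 CPM after naphthalene. The groups did not overlap, but the lowest treated library was only 1.21 times the highest control. The log2 fold change was 0.95 (SE 0.21, edgeR adjusted p = 0.00183). Among 8 other tested galectin genes and ligands 2 rose and 2 fell, against 14.1% and 14.6% of all tested genes. Their median log2 fold change was 0.13. Lgals1 rose from 71.9 ± 5.30 to 128 ± 36.6 CPM (edgeR adjusted p = 0.00373). Lgals12, known from fat cells, fell from 5.63 ± 0.623 to 1.76 ± 0.669 CPM (adjusted p = 0.000958), and Lgals2 fell by 0.85 on the log2 scale (adjusted p = 0.0129).

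Anxa1 encodes annexin A1, a calcium-dependent membrane-binding protein that is induced by glucocorticoids and limits neutrophil recruitment. It was at 250, 294, 360 and 298 CPM in controls and 334, 454, 763 and 630 CPM after naphthalene. The groups overlapped, since naphthalene 1 lay below control 3. Anxa1 still passed, with a log2 fold change of 0.86 (SE 0.28, edgeR adjusted p = 0.0139), and without any 1 library its adjusted p was 0.000895 to 0.0484. Of 13 other tested annexins, S100 partners and formyl peptide receptors 6 rose and 0 fell, against 14.1% and 14.6% of all tested genes. Their median log2 fold change was 0.40. Anxa3 rose from 292 ± 25.6 to 612 ± 65.3 CPM (edgeR adjusted p = 7.19e-05), Anxa7 by 0.58 on the log2 scale (adjusted p = 0.000694) and S100a10, the partner of annexin A2, by 1.01 (adjusted p = 0.00367). The annexin A1 receptor genes Fpr1 and Fpr2 did not pass (adjusted p = 0.371 and 0.453).

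Ndrg1, a gene induced by hypoxia and other stresses, was at 34.2, 32.0, 27.6 and 27.8 CPM in controls and 39.0, 41.1, 35.8 and 32.2 CPM after naphthalene. The 2 groups overlapped only through naphthalene 4, which lay below control 1. The log2 fold change of 0.29 (SE 0.11) did not pass (edgeR adjusted p = 0.0816). Without naphthalene 4, the lowest treated library, the log2 fold change was 0.35 with an adjusted p of 0.0361. Without any other single library it did not pass (edgeR adjusted p = 0.073 to 0.213). Of 19 other tested Ndrg genes and hypoxia-related genes 8 rose and 1 fell, against 14.1% and 14.6% of all tested genes. Their median log2 fold change was 0.15. Without overlap between groups 6 were higher and 4 lower, against 13.9% and 14.7% of all tested genes. Among the lower ones were Vegfa, Pdk1 and Kdm3a, which did not pass (edgeR adjusted p = 0.069, 0.114 and 0.25). They were named after their values were seen. Hif3a, a hypoxia factor subunit, rose from 3.87 ± 0.937 to 18.6 ± 3.81 CPM (edgeR adjusted p = 4.74e-05), Bnip3 by 0.61 on the log2 scale (adjusted p = 0.00375) and P4ha2 by 0.56 (adjusted p = 0.00488). Car9, a carbonic anhydrase that responds to hypoxia, fell by 0.75 on the log2 scale (adjusted p = 0.0259).

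Clu encodes clusterin, a secreted chaperone, and was the 1 gene of the 9 with a lower estimate. Its values were 123, 132, 104 and 134 CPM in controls and 124, 108, 104 and 106 CPM after naphthalene. Control 3 was the lowest of all 8 libraries, and naphthalene 1 lay among the other controls. The log2 fold change was -0.16 (SE 0.10, edgeR adjusted p = 0.279), and it did not pass without any 1 library (adjusted p = 0.0953 to 0.514). Leaving out both control 3 and naphthalene 1 gave -0.29 (edgeR adjusted p = 0.0227). These were the lowest control and the highest treated library for Clu, so leaving them out widens the gap by construction and is not separate evidence of a fall. Of 9 tested genes of clusterin receptors and related extracellular chaperones 4 rose and 0 fell, against 14.1% and 14.6% of all tested genes. Their median log2 fold change was 0.44. Lrp8, a clusterin receptor, rose from 3.44 ± 0.496 to 14.2 ± 3.13 CPM (edgeR adjusted p = 5.41e-05), Ptx3 by 2.17 on the log2 scale (adjusted p = 0.00414) and A2m by 1.52 (adjusted p = 0.00617).

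Sprr1a encodes a small proline-rich protein of the cornified envelope, the cross-linked layer of squamous epithelia, and was the rarest of the 10 genes. The controls had 0, 2, 5 and 2 reads, 9 in all, and the treated libraries 15, 20, 19 and 5, 59 in all. Control 3 and naphthalene 4 had the same 5 counts, and their 95% Poisson intervals of 0.143 to 1.03 and 0.149 to 1.07 CPM nearly coincide. The intervals cover counting error alone. The gene was too low for the filter on counts and has no main test, and with no filter its log2 fold change was 2.52 (edgeR adjusted p = 0.0136), and 3.28 when control 3 was left out. Of 21 listed cornified envelope genes 19 were in the table and 3 could be tested, and those 3 rose, namely Tgm1, the enzyme that cross-links the envelope (4.04 ± 0.905 to 16.9 ± 3.81 CPM, edgeR adjusted p = 7.19e-05), Cdsn by 2.03 (adjusted p = 0.0033) and Ivl by 1.05 on the log2 scale (adjusted p = 0.0255). The other 16 were too low to test, among them 13 further Sprr genes with at most 2 counts in any library. Of all tested genes 14.1% were called higher. Cdsn had 3, 11, 10 and 7 counts in controls and Ivl 17, 11, 11 and 8. Both met the filter on counts only through the treated libraries. A gene as low in controls that did not rise was left out, so the 3 rises are partly set by the filter and are not a result about the list.

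The 200 bases before the Sprr1a start, chr3:92485882-92486081 on the minus strand (RefSeq, GRCm38.p6), are shown because they were the only promoter of the set with a match to the AP-1 motif. Promoter windows of 300 bases (250 before to 50 after the start) were held for 7 of the 10 genes. Capitals mark 2 matches to the AP-1 letters TGANTCA, the first run together with an overlapping match to the NRF2 letters TGACNNNGC on the opposite strand, and 1 match to TATAAA.
Sprr1a: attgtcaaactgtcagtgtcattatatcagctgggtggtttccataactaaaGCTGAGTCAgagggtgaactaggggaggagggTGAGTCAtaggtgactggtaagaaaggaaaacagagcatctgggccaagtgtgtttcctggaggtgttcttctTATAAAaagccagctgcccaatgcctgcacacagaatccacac

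On both strands, TGANTCA was found in 7.81% of all 32851 promoter windows and at least 2 matches in 0.46%. TGACNNNGC was in 12.4% of windows and, among the 7, in that of Sprr1a alone. TATAAA was in 13.6% of windows and in those of Krt8, Anxa1 and Sprr1a, that of Krt8 running across the annotated start. The TEAD letters GGAATG were in 14.7% of windows and in that of Anxa1, and the hypoxia letters ACGTG were in 19.6% and in 0 of the 7. A match describes letters in this window and is not a measured binding site.

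Other genes of the transitional alveolar state mostly rose too. Of 22 tested genes on that list 15 rose and 1 fell, with a median log2 fold change of 1.25, against 14.1% and 14.6% of all tested genes and a median of 0.01. The list was chosen with earlier results of these data known, and no test of the list was made. The growth factor gene Areg rose from 4.79 ± 1.27 to 33.6 ± 6.83 CPM (edgeR adjusted p = 1.33e-05), the tight junction gene Cldn4 from 3.26 ± 0.774 to 28.4 ± 8.62 CPM (adjusted p = 3.19e-05) and Lcn2, an iron-siderophore binding protein, by 2.23 on the log2 scale (adjusted p = 4.74e-05). Cldn4 shared the order of Krt18 and Sfn in part, with 27.0, 36.6, 32.9 and 16.8 CPM in naphthalene 1 to 4, so that naphthalene 4 was again lowest. Areg was highest in that library, at 37.2, 26.1, 30.0 and 41.2 CPM in the same order. The 1 gene that fell was Nupr1, a stress-responsive regulator, by 0.47 on the log2 scale (adjusted p = 0.00377); it was named after its value was seen.

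Among the other keratins Krt80 was the most abundant of those tested, at a control level of 75.5 ± 4.71 CPM, near that of Krt18. The table holds 54 keratin genes, of which 12 were tested, and the 4 simple keratins held 80.5% to 83.0% of all keratin counts in controls and 86.3% to 92.4% after naphthalene. On the list of other keratins 7 of 19 were tested. Of these Krt78 and Krt80 rose and 0 fell, against 14.1% and 14.6% of all tested genes, with a median log2 fold change of -0.31. The list does not hold Krt87, which rose as given above, and with it 3 of the 8 tested keratins outside the simple 4 rose and 0 fell, with a median of -0.26. Krt80 overlapped between groups, at 69.6 to 79.9 CPM in controls and 149, 128, 130 and 69.9 CPM in naphthalene 1 to 4. On the list, only 1 keratin passed when control 2, 3 or 4 or naphthalene 2 or 3 was left out, and 4 passed when naphthalene 4 was. Krt6a, a keratin of wounded and hyperplastic epithelium, had 0 reads in every control, and the treated libraries had 13, 3, 1 and 14. Its treated mean of 0.585 ± 0.554 CPM was at least 9.80-fold higher, with the 4 controls together set to 3 counts. That bound covers the control side alone, and naphthalene 1 and 4 held most of the treated reads. The pattern was not particular to Krt6a. Krt20, also on the list, had 0 reads in every control and 2, 5, 0 and 7 after naphthalene. Krt83, which is not on the list, had 0 in every control and 7, 7, 2 and 8 after naphthalene. Krt6b, also on the list, had 3 reads in control 1 and 0 in every other library. The basal cell keratin Krt5 had 13, 2, 1 and 5 reads in the controls, against 7, 1, 9 and 27 after naphthalene. Krt5, Krt6a, Krt6b, Krt20 and Krt83 were not tested, and all of these but Krt5 were named after their counts were seen.

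Of 14 tested genes of desmosomes and keratin linkers, which anchor the filaments, 2 rose and 2 fell, against 14.1% and 14.6% of all tested genes, with a median log2 fold change of 0.05. Ppl, which encodes the linker periplakin, was at 120, 119, 122 and 119 CPM in controls and 197, 290, 354 and 204 CPM after naphthalene, a log2 fold change of 1.12 (edgeR adjusted p = 0.000777). All 4 treated libraries exceeded the narrow control range. The desmosomal cadherin genes Dsc2 and Dsg2 fell by 1.09 and 0.48 on the log2 scale (adjusted p = 0.0169 and 0.0423). These 4 calls became 2 when control 2 or naphthalene 3 was left out, 1 when control 4 or naphthalene 2 was, and 7 when both control 3 and naphthalene 1 were. Of 11 other tested intermediate filament genes 4 rose and 1 fell, with a median of 0.07. Prph, known from neurons, rose from 0.197 ± 0.290 to 1.86 ± 0.429 CPM (adjusted p = 0.00245), the lamin gene Lmna rose by 0.59 (adjusted p = 0.011) and Synm, a muscle-type filament gene, fell by 0.91 (adjusted p = 0.00415). These 5 calls became 3 when control 1, 2 or 3 or naphthalene 2 or 3 was left out.

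**Figure D4:**
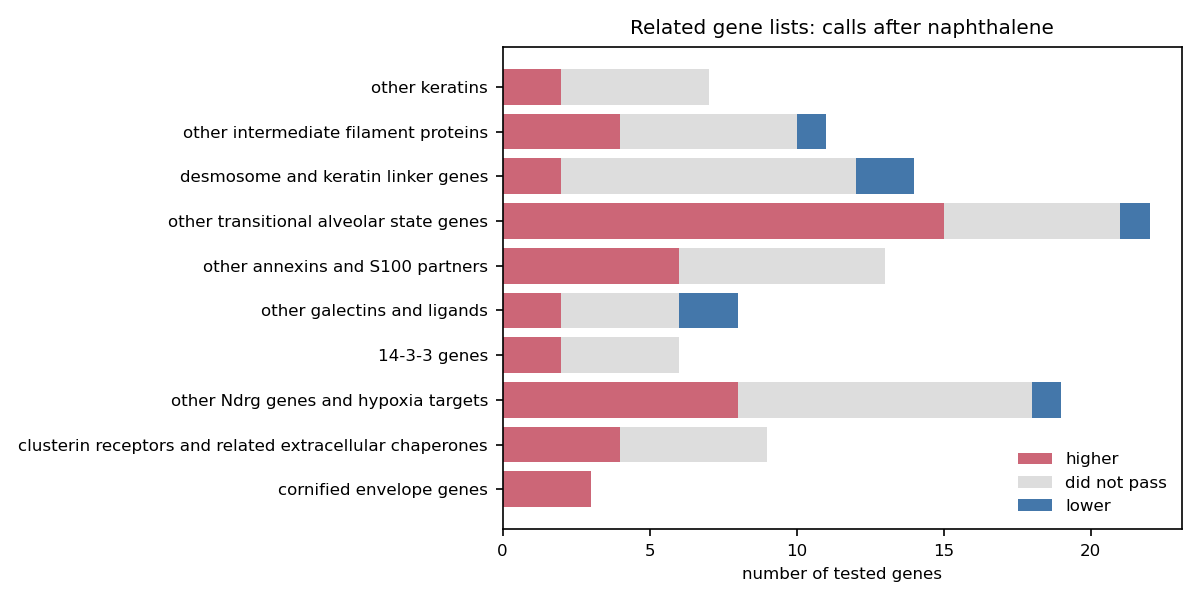
Number of tested genes in each list related to the 10 genes that passed as higher (red), passed as lower (blue) or did not pass (grey) an adjusted p of 0.05. The transitional alveolar list has 15 higher of 22, while the desmosome and linker list has 2 higher and 2 lower of 14.

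The 5 genes whose profile over the 8 libraries was most like the mean profile of the 4 simple keratins were Epha2, Taldo1, Hbegf, Krt87 and Tuba1c. Likeness was the root mean square difference of log2 CPM after centring each gene on its own mean, among 13523 genes with a mean CPM of at least 1. The differences were 0.0961 for Epha2, a receptor tyrosine kinase, 0.0964 for Taldo1, an enzyme of the pentose phosphate pathway, 0.128 for the growth factor gene Hbegf, 0.134 for Krt87 and 0.14 for the tubulin gene Tuba1c. The keratins themselves lay 0.0749 to 0.132 from their mean, Lgals3 0.309, Anxa1 0.403 and Sfn 0.484. Each keratin is part of that mean, which makes its own distance smaller than that of an outside gene. Epha2 rose from 80.8 ± 3.70 to 216 ± 66.6 CPM and Hbegf from 50.1 ± 4.28 to 142 ± 40.4 CPM. Such rises follow from choosing genes by their likeness to the keratins.

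The treated libraries differed among themselves in a way that most of the tested genes shared. Naphthalene 3 had the highest level of 7 of the 9 tested genes among treated libraries, and naphthalene 1 and naphthalene 4 each had the lowest of 4. Among controls, the highest was control 4 for 4 genes and control 3 for 3. Without naphthalene 3 the log2 fold changes of Krt8, Krt18, Krt19 and Sfn were 1.25, 1.23, 1.01 and 1.92, and all 4 passed. Naphthalene 3 also held the largest share of haemoglobin counts (0.28%, other libraries 0.0024% to 0.126%), and its part in these values was not tested. With haemoglobin and mitochondrial genes left out of the fit, the log2 fold changes of the 4 keratins were the same to 2 decimals. Mitochondrial genes held at most 0.923% of the counts of a library and haemoglobin genes at most 0.28%. Leaving them out could therefore change little, and it does not address the blood content of a library.

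Summed markers of epithelial cells and of the mesothelium moved less than the keratins, or the other way. Of all tested genes 14.1% were called higher and 14.6% lower. Of 9 tested pan-epithelial markers 1 rose (St14) and 0 fell, with summed levels of 709 to 810 CPM in controls and 687 to 871 CPM after naphthalene; a further marker, Elf3, is listed at 0 in every library. Of 8 mesothelial markers 1 fell and 0 rose, and their sum was 512 to 685 CPM in controls and 442 to 613 CPM after naphthalene. The mesothelial marker Msln was at 120 ± 14.9 and 141 ± 19.2 CPM (edgeR adjusted p = 0.167), and Upk3b did not pass (adjusted p = 0.0545). Epcam was given above, and Cdh1 was at 388 ± 19.9 and 393 ± 45.3 CPM (edgeR adjusted p = 0.905). Of 9 alveolar type 1 markers 2 rose, Hopx among them and Ager not (sums of 7880 to 10339 and 9498 to 10899 CPM), and of 8 type 2 markers 3 rose, Sftpb among them and Sftpc not (14507 to 17515 and 16381 to 20129 CPM). Of 7 club cell markers 6 fell, Scgb1a1 and Scgb3a2 included, with sums of 7434 to 13942 and 2632 to 5288 CPM, and of 7 ciliated cell markers 6 fell, Dnah5 included and Foxj1 not, with sums of 597 to 830 and 101 to 221 CPM. Of 3 tested basal cell markers 0 passed, Krt5 and Krt14 were too low to test, and all 7 summed to 3.43 to 11.7 CPM in controls and 3.46 to 13.0 CPM after naphthalene.

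**Figure D5:**
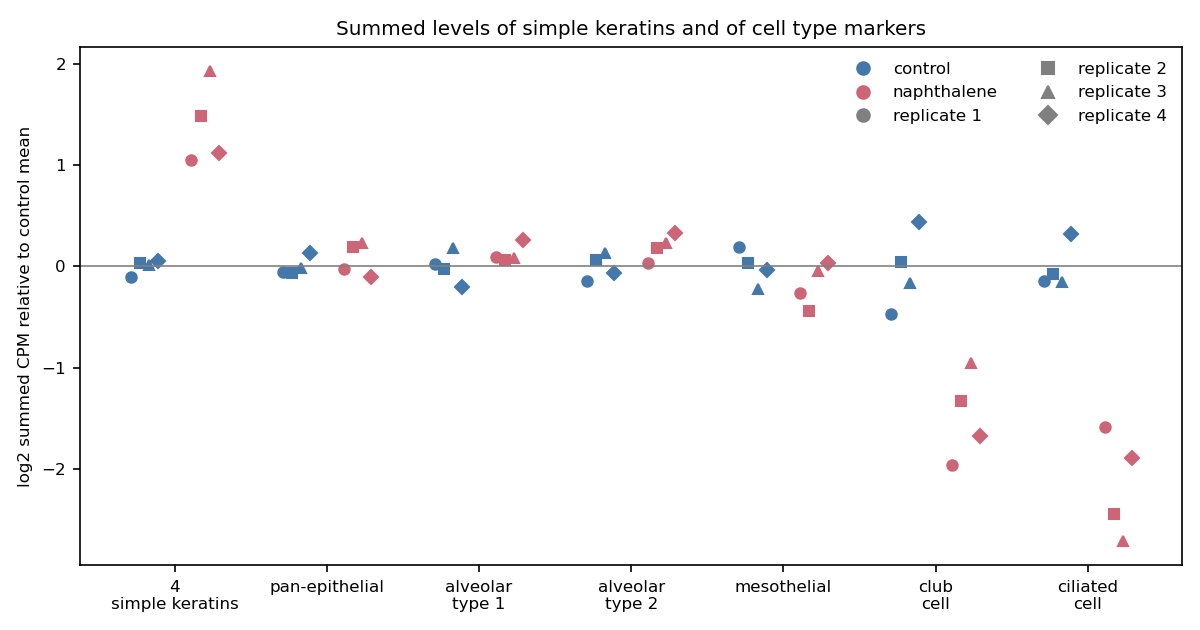
Summed CPM of the 4 simple keratins and of 6 lists of cell type markers in each library, as log2 relative to the control mean of the same list; blue points are controls and red points naphthalene libraries, with symbols for replicate numbers. The keratin sum lies 1.04 to 1.93 above the control mean after naphthalene, and the club and ciliated cell sums lie below every control.

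Markers of immune cells that can hold Lgals3 and Anxa1 also varied between libraries. The counts below stand against 14.1% of all tested genes called higher and 14.6% called lower. Of 9 tested macrophage markers 2 rose and 2 fell, and the sum was 708 to 1110 CPM in controls and 698 to 1502 CPM after naphthalene, highest in naphthalene 3 and 4, the libraries with the highest Lgals3 and Anxa1. Of 6 tested neutrophil markers 2 rose, S100a8 and S100a9 not among them, with a sum of 71.2 to 406 CPM in controls, highest in control 3, and 224 to 509 CPM after naphthalene. The neutrophil markers had a median log2 fold change of 1.35 and the macrophage markers one of 0.28. Control 3 was also the control with the highest Anxa1 and Lgals3. Mrc1 did not pass (edgeR adjusted p = 0.133), Marco and Cxcr2 are listed at 0 in every library, and the part of macrophages and neutrophils in the Lgals3 and Anxa1 values was not tested. Platelet markers, which can accompany Clu, had 0 of 5 past the threshold, Pf4 and Ppbp included, and summed to 17.9 to 37.8 and 27.1 to 64.3 CPM. Endothelial, smooth muscle and fibroblast markers had 0 higher, with 1 of 8, 0 of 5 and 2 of 7 lower, and 0 of 5 red cell genes passed. Their defining markers Pecam1, Cdh5, Acta2, Myh11, Col1a1, Col1a2, Hbb-bs and Hbb-bt did not pass.

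Several limits touch these values. Genes expressed in most lungs, among them Fn1, Des and Dst, are listed at 0 in every library, so a 0 in this table was not read as absence. GENCODE M21 places a gene on the opposite strand over part of Krt7, Krt8, Ndrg1 and Anxa1, and these sources do not state the strand setting of the counting.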

How the data were processed

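The values are raw read counts for each gene, as deposited. Per the submitters' processing notes, the build was mm39 and the tools included featureCounts 2.0.6, HISAT2 2.2.1, Trim Galore 0.6.7 and edgeR 4.2.1, with no role or order stated. Annotation, strand setting and the treatment of reads with several matches are not stated there. Each column was matched to a mouse by its library name.

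The test was edgeR 4.0.16 in R 4.3.3 (TMM scaling, filterByExpr with a minimum count of 10 and a minimum total of 15, quasi-likelihood test on group, Benjamini-Hochberg over 14192 genes, threshold 0.05). Some genes with few control counts met the filter only through the treated libraries, Krt78, Prph, Ptx3, A2m, Cdsn and Ivl among them. Their rises are therefore in part selected by the filter. The SE of a fold change was computed from the group variances of log2 CPM (prior count 2). Ratios of counts were compared by an exact permutation test of 70 assignments. Alternatives used limma 3.58.1 (voom), DESeq2 1.42.0, other scalings and filters, a replicate block and left-out libraries. Each library came from its own mouse, per the labels' protocols, and replicates of a group differed by more than sampling noise (chi-square over its degrees of freedom 5.57 to 48.5).

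The genes and lists were chosen with earlier results of these data known. Named genes were the 10 members, up to 3 list members of smallest p past the threshold, and the 5 most alike genes; others are marked as chosen after their values were seen, and list genes named beside a count illustrate it. On simulated data for naphthalene against control, the procedure recovered 86% of 50 genes at a log2 change of 1 and 100% of 50 at 2, among 14093 tested genes, with 14 false calls among 194. For falls it recovered 85.7% of 49 genes at -1 and 93.8% of 48 at -2. Far fewer genes were changed in the simulation than passed in the data, so these rates need not hold for the data. Lengths came from GENCODE M21 and gene order and promoters from RefSeq, both built on GRCm38 and so not on the counts' mm39. Protein sequences were not used here.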

Additional observations from a re-analysis of the deposited data

Results flagged for a closer look

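In 30 groups of 4 libraries (levels of the 10 genes and 5 ratios of counts, in each group), 1 library stood far from the other 3 of its group by Dixon's test. It was naphthalene 4 in the ratio of Krt19 to Krt18 counts, at 1.35 where the other treated libraries were at 1.07 to 1.10. The value lies within the control range of 1.19 to 1.52. Chance marks about 1 group in 20.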

How the results depend on the processing

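The 7 genes that passed as higher (Krt7, Krt8, Krt18, Krt19, Sfn, Lgals3 and Anxa1) passed in the same direction under all 9 other settings and without each library in turn. Their log2 fold changes without 1 library ranged over 1.32 to 1.57 for Krt7, 1.25 to 1.65 for Krt8, 1.23 to 1.64 for Krt18, 1.01 to 1.35 for Krt19, 1.92 to 2.52 for Sfn, 0.81 to 1.10 for Lgals3 and 0.65 to 1.04 for Anxa1. Ndrg1 (0.23 to 0.35) passed only without naphthalene 4, its lowest treated library. Clu (-0.23 to -0.11) passed as lower, at -0.29, only without control 3 and naphthalene 1 together, which makes 1 gene lower. Those were its lowest control and its highest treated library. Sprr1a, too low for the filter, passed at 2.52 with no filter and at 2.16 to 3.28 without 1 library (edgeR adjusted p = 0.00563 to 0.0445), a repeat chosen after seeing the data. Genes past the threshold in all numbered 4075, and 2929 to 5058 without 1 library. The median of all tested genes moved by less than 0.1 under every scaling.

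Counts of list genes past the threshold without 1 library were 1 to 4 for other keratins, 3 to 6 for intermediate filament genes, 1 to 6 for desmosome and linker genes and 0 to 2 for 14-3-3 genes. The 14-3-3 count was 0 with upper quartile scaling or no filter, and 1 with voom or without control 3 and naphthalene 1 together, where intermediate filament genes numbered 3 and desmosome and linker genes 7. The cause was not tested. Keeping matches on the gene's strand alone left 0 of 7 promoters with the NRF2 or TEAD letters.

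With the replicate block the 7 genes passed as before, at 1.45 for Krt7 and 1.42 for Krt18, and 4363 genes passed in all. Nothing in the labels pairs mice by number, and same-numbered libraries correlated in their deviations at -0.0934 to 0.287, over 0.1 in 2 of 4 pairs. The smallest exact p for a ratio without 1 library is 0.0286, and the adjusted p of Krt8 to Epcam was then 0.143. That is the lowest value open to 1 ratio alone at that floor, so it could not pass there either. That log2 difference was 1.04 to 1.16 without 1 library, and ratios per length give the same differences by construction. At this depth genes as low as Sprr1a cannot be ranked between single libraries.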
